A study of Mus musculus with 6 samples.

Results

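The immunoglobulin heavy variable (Ighv) genes measured here are the 31 rows, of 39179 genes in the expression table, whose Ensembl identifier carries a symbol starting with Ighv. Of these, 7 were matched by the symbol in the reference annotation and 24 through an older symbol that RefSeq lists as a synonym. RefSeq lists 183 Ighv genes on mouse chromosome 12, so that 152 of them are not analysed here and every share below is a share of the 31 genes, not of the whole repertoire. Among the 31, RefSeq annotates 24 as V segments and 7 as pseudogenes, and they belong to 13 families. All 4 RefSeq genes of family 7 and both of family 13 were measured, but only 8 of the 92 of family 1, 2 of the 21 of family 5 and 3 of the 16 of family 8. No gene of families 9, 10 or 11 was included.

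RNA-Seq was performed on GC B cells, sorted as Fas+GL7+ cells, and on resting (naive) B cells, sorted as Fas-GL7- cells. Both were taken from Peyer's patches of the ileum of WT C57BL/6 mice, which were female, 12 wk old and littermates. Cells of 5 mice were pooled for each of the 3 biological replicates of a population, so that differences between single mice cannot be seen. No allele was altered in either population, and the labels give no immunization or other treatment.

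A functional heavy chain gene is assembled by joining a V, a D and a J segment, and the V segment encodes most of the variable domain that contacts antigen. Each B cell expresses a single rearranged V segment in its productive heavy chain, so a population's Ighv transcripts add up the choices of many clones. In GCs, clones that bind antigen divide and are selected, while AID introduces mutations into the rearranged V region. Families group V segments by sequence similarity, and members of a family can be nearly identical. In bulk samples such as these, fewer cells using a V segment and less RNA per cell cannot be told apart. Alignment set limits on mismatches, and whether reads with mutations were lost or assigned to another gene was not tested.

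The sequences of 7 members on which the results turn are shown 5′ to 3′, as the last 300 bases (294 for Ighv1-47) of their annotated reference transcripts (GENCODE M1, NCBIM37), with each AGCT in capitals. AGCT is a hotspot motif for deamination by AID and reads the same on both strands. Ighv1-47 is the member that rose in GC B cells, Ighv14-4 had the most negative fold change on log2(TPM + 1), Ighv8-12 and Ighv3-8 had a single GC pool on the other side of the naive pools, Ighv8-13 is the closest measured relative of Ighv8-12, Ighv7-1 is the most abundant measured member of family 7, and Ighv6-3 was abundant in both populations.
Ighv1-47: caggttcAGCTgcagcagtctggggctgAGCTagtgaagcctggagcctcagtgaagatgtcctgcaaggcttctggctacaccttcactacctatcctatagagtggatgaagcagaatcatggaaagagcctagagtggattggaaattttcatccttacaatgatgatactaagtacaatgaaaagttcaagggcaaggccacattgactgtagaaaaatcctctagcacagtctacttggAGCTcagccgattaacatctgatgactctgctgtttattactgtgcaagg
Ighv14-4: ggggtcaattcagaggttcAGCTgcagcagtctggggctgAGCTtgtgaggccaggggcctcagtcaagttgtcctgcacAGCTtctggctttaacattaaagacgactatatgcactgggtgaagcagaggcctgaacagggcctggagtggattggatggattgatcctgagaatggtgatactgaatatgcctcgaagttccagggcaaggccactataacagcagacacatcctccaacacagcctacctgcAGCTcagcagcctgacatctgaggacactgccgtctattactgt
Ighv8-12: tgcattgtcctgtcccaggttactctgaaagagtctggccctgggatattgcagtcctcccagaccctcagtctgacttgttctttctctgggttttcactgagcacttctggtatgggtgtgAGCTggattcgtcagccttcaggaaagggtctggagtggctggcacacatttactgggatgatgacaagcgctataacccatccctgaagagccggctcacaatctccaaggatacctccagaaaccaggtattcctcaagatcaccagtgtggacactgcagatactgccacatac
Ighv8-13: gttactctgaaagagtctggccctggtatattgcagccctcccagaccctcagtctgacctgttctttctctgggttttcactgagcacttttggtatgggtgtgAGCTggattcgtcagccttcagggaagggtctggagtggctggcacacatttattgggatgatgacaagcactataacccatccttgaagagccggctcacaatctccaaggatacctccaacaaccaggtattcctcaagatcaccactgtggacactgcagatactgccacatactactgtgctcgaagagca
Ighv3-8: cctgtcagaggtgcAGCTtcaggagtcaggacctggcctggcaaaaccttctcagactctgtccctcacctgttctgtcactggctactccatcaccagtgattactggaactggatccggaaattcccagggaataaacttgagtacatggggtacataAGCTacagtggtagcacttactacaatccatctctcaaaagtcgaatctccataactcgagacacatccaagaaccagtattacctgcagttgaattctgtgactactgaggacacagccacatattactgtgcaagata
Ighv7-1: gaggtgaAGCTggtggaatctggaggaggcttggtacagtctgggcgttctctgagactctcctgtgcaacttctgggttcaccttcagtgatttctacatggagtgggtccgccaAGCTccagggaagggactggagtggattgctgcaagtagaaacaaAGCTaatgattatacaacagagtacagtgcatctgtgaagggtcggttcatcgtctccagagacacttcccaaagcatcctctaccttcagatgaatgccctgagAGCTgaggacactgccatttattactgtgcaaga
Ighv6-3: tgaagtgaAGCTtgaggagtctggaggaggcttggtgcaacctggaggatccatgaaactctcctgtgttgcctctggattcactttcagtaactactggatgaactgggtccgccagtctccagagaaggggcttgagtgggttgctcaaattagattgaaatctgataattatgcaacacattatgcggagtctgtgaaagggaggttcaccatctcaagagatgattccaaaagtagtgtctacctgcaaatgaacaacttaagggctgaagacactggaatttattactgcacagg

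The 7 sequences held between 1 and 4 AGCT motifs. Of the 109 Ighv reference transcripts of at least 250 bases, 106 (97.2%) held at least 1 AGCT in the same last 300 bases, with a median of 3, so the motif does not set these members apart. By RefSeq coordinates on GRCm38, Ighv1-47 lies at chr12:114991108-114991401, Ighv14-4 at chr12:114176438-114176867, Ighv8-12 at chr12:115647945-115648245, Ighv8-13 at chr12:115765335-115765635, Ighv3-8 at chr12:114322376-114322666, Ighv7-1 at chr12:113896408-113896946 and Ighv6-3 at chr12:114391712-114392010. All are germline V genes of the heavy chain locus. Ighv8-12 and Ighv8-13 were 96.1% identical, and 9.02% of the 50-base windows of Ighv8-12 also occurred in another Ighv transcript. Ighv8-13 was 98.7% identical to Ighv8-9, which was not measured, and shared 55.5% of its windows. Ighv14-4 was 97.6% identical to Ighv14-1, which was not measured, and shared 20.4% of its windows. For Ighv1-47 the closest relative of at least 250 bases was 84.4% identical, and none of its windows was shared. The 90-base transcript of Ighv1-62-1 was 91.1% identical to it. Only 114 Ighv reference transcripts were compared, fewer than the 183 RefSeq genes, so closer relatives may be missing. Reads from shared stretches can be assigned to either gene. Within the transcripts compared, the values of Ighv8-13 and Ighv14-4 are less certain than that of Ighv1-47.

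Depth was read from the smallest increments of low FPKM values. It was between 9650000 and 11050000 reads in the GC pools and between 9750000 and 15850000 reads in the naive pools, and is approximate because only 66.7% to 74.8% of the low values lay within 0.15 of a whole read. The sort was visible in the markers. Ms4a1, which encodes a B cell surface protein, was at 906, 956 and 931 TPM in GC pools and at 722, 722 and 708 TPM in naive pools. All 5 GC markers tested were higher in GC B cells and all 4 naive markers tested were lower. Markers of T cells summed to between 1.65 and 3.51 TPM in GC pools and between 1.72 and 2.46 TPM in naive pools, markers of myeloid cells to between 2.29 and 2.56 TPM and between 4.37 and 7.21 TPM, and markers of gut epithelium to between 23.5 and 42.5 TPM and between 51.2 and 74.8 TPM. Of the 6 plasma cell markers, 2 were higher in GC B cells and 3 lower. Jchain was higher, with a GC mean of 669 TPM against a naive mean of 33.3, as was Prdm1 (5.01 against 0.955). The lower markers were Irf4 (21.7 against 76.4), Xbp1 (104 against 120) and Sdc1 (1.51 against 3.19). Tnfrsf17, which encodes the plasma cell receptor BCMA, was at 0 in all pools but GC replicate 1, where it was 0.193 TPM. The part of these other cells in the Ighv values was not tested.

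The 31 Ighv genes together had a lower summed level in GC B cells, which does not cover the Ighv genes not analysed here. They summed to 565, 626 and 580 TPM in GC replicates 1, 2 and 3, a mean of 590 ± 31.8 (SD, n = 3). In naive replicates 1, 2 and 3 they summed to 1017, 1057 and 873 TPM, a mean of 982 ± 96.4 (SD, n = 3). The populations did not overlap, and the GC mean was 0.601 times the naive mean. A large part of the naive sum came from Ighv1-2, a RefSeq pseudogene whose reference transcript has only 123 bases, so that its value rests on few reads and an uncertain effective length. Without Ighv1-2 the log2 ratio of the sums moved from -0.73 to -0.61. RefSeq V segments alone summed to 489 ± 34.9 TPM in GC and 687 ± 37.0 TPM in naive pools (SD, n = 3).

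The constant region gene of IgM, Ighm, was at 465 ± 12.0 TPM in GC and 3733 ± 9.84 TPM in naive pools (SD, n = 3), a mean 8.02 times as high in naive pools (limma adjusted p = 7.58e-08). The constant region gene of the switched isotype IgG1, Ighg1, was at 841 ± 55.8 TPM in GC and 1.17 ± 1.22 TPM in naive pools (SD, n = 3). Ighd, Ighg2b, Ighg3 and Igha were not analysed here, so the constant regions that carry the Ighv transcripts were not all counted. Of the 5 constant region and J chain genes tested, Ighg1, Ighg2c, Ighe and Jchain rose and Ighm fell. The 4 joining segments Ighj1 to Ighj4 were listed at 0 in every pool. Quantification was set to a mean fragment length of 180 bases, and whether such short segments could be assigned reads was not tested. Their 0 is therefore not a measured absence. Of the B cell receptor partners, Cd79a, Cd79b, Igkc and Iglc2 fell in GC B cells, Cd79a by 1.12 and Igkc by 0.22 on the log2 scale (limma adjusted p = 9.89e-07 and 0.00483). The recombinase genes and Dntt, which adds bases at V(D)J joints, were near 0 in both populations, with Rag2 at 0 in every pool, Rag1 at no more than 0.194 TPM and Dntt at no more than 0.0411 TPM. Of that list of 9 genes, 3 were tested, of which Lig4, a DNA ligase of end joining, rose, whereas its partner Xrcc4 and Vpreb3 fell. The surrogate light chain genes Vpreb1, Vpreb2 and Igll1 were at no more than 0.459, 0.557 and 0.246 TPM in any pool.

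**Figure D1:**
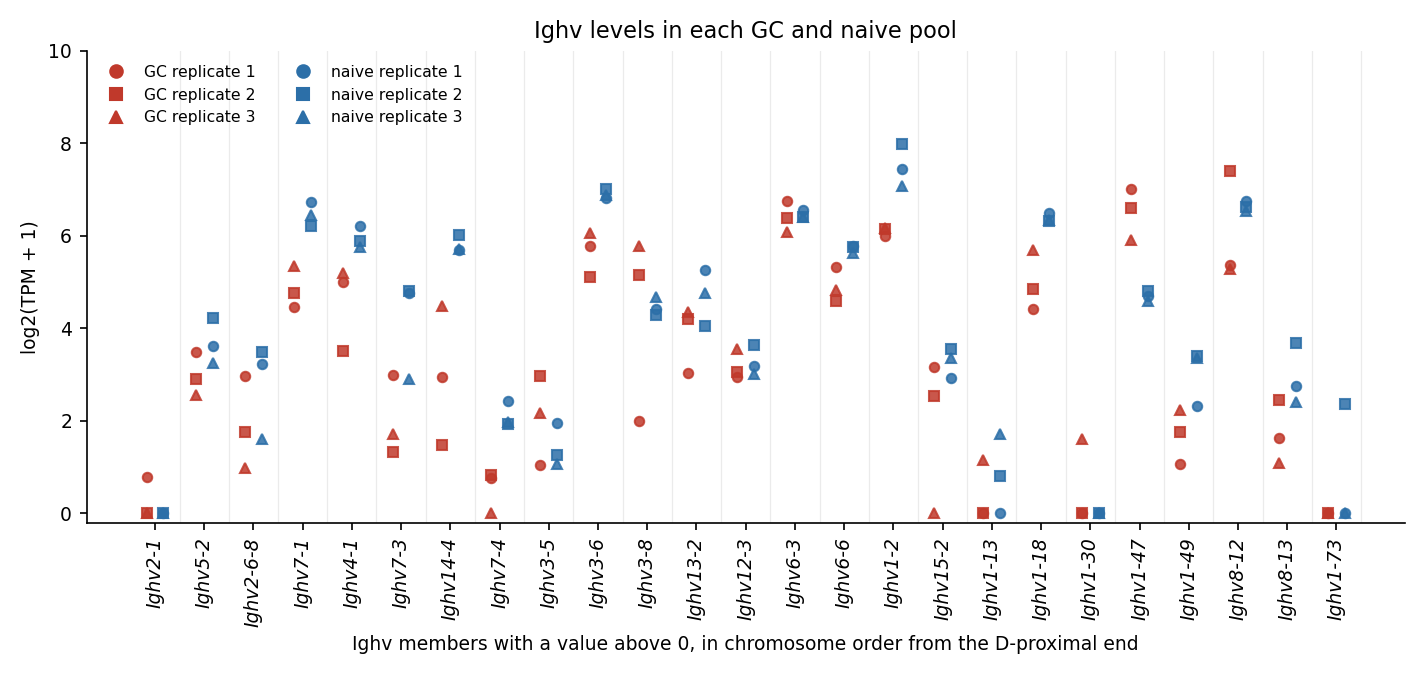
Level of each of the 25 Ighv members with a value above 0, as log2(TPM + 1) (y axis), in the 3 GC pools (red) and the 3 naive pools (blue), with members in chromosome order from the end nearest the D segments (x axis) and a symbol for each replicate. All GC points lie below all naive points for 9 of the 21 members tested, those of Ighv1-47 lie above, and GC points are spread more widely for Ighv14-4, Ighv3-8 and Ighv8-12.

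Of the 31 members, 6 were listed at 0 in every pool (Ighv5-8, Ighv7-2, Ighv16-1, Ighv13-1, Ighv1-62-1 and Ighv8-14), and 19 were above 0 in all pools. Another 4 had traces that did not reach 1 TPM in 3 pools (Ighv2-1, Ighv1-13, Ighv1-30 and Ighv1-73), which left 21 members in the test. Of these 21, limma called 1 higher in GC B cells and 11 lower at an adjusted p under 0.05. Of all 12785 genes tested, 65.6% were called, 35.5% as higher and 30.1% as lower in GC B cells. The members' share called lower was 52.4% and their share called higher 4.76%. Their median log2 fold change was -1.22, and that of all genes 0.03. The pools of the 2 populations did not overlap for 10 of the 21 members, 47.6%, and for 70.7% of all genes.

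Ighv1-47, a segment of family 1, rose in GC B cells. Its level was 128.6, 95.6 and 59.5 TPM in GC replicates 1, 2 and 3, and 24.8, 27.2 and 23.0 TPM in naive replicates 1, 2 and 3. Every GC pool lay above every naive pool, and the naive pools were close together. The log2 fold change was 1.81 (SE 0.26, limma adjusted p = 0.00106). Its share of the Ighv sum was 22.8%, 15.3% and 10.2% in the GC pools and between 2.44% and 2.63% in the naive pools. It was the most abundant member in GC replicate 1 and the second in GC replicate 2, whereas no naive pool had it among its 5 most abundant members.

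Ighv14-4, the measured segment of family 14, fell, with the most negative fold change on the log2(TPM + 1) scale. It measured 6.75, 1.80 and 21.4 TPM in GC replicates 1, 2 and 3 and at 50.8, 63.4 and 51.8 TPM in naive replicates 1, 2 and 3. GC replicate 2 was lowest, and all GC pools lay below all naive pools. The log2 fold change was -2.83 (SE 0.70, limma adjusted p = 0.0110), and it was -2.09 without GC replicate 2 and -3.59 without GC replicate 3. With a pseudocount of 0.01 it was -3.11, and Ighv7-4 (-4.24) and Ighv15-2 (-3.58) were more negative, neither of them past the threshold there. The spread among GC pools, a CV of 102%, was the widest of the members with at least 5 TPM in both populations.

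In family 7, each of the 3 members with a value was called lower. Ighv7-1 measured 21.1, 26.3 and 40.0 TPM in GC replicates 1, 2 and 3 and at 105.0, 72.5 and 86.8 TPM in naive replicates 1, 2 and 3, with a log2 fold change of -1.60 (SE 0.24, limma adjusted p = 0.00134). Its GC pools all lay below its naive pools. Ighv7-4 was at 0.689, 0.761 and 0 TPM in GC pools and at 4.40, 2.79 and 2.91 TPM in naive pools, with a log2 fold change of -1.58 (SE 0.27, limma adjusted p = 0.00225). At these levels a pool holds only a few reads, and with a pseudocount of 0.01 the log2 fold change was -4.24 and the call was lost (limma adjusted p = 0.0700). Ighv7-3 was at 6.89, 1.51 and 2.30 TPM in GC and 26.3, 26.9 and 6.53 TPM in naive pools, with a log2 fold change of -2.15 (SE 0.64, limma adjusted p = 0.0237). Naive replicate 3 lay within the range of the GC pools, and the call was lost without GC replicate 2 or 3 or without naive replicate 1 or 2 (limma adjusted p between 0.0686 and 0.0786). Without naive replicate 3 the log2 fold change was -2.78. Ighv7-3 and Ighv7-4 were 94.1% identical.

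Ighv1-2 and Ighv3-6, the most abundant members of the naive pools, fell in GC B cells, as did Ighv1-18. Ighv1-2 was at 62.6, 69.4 and 70.4 TPM in GC and 172.5, 252.9 and 133.1 TPM in naive replicates 1, 2 and 3, with a log2 fold change of -1.40 (SE 0.22, limma adjusted p = 0.00151). It was first in all 3 naive pools and in GC replicate 3, but a level near 70 TPM corresponded to only about 12.3 to 13.3 reads in a GC pool. Ighv3-6 was at 53.8, 33.7 and 65.9 TPM in GC and 111.9, 127.4 and 117.5 TPM in naive pools, with a log2 fold change of -1.25 (SE 0.23, limma adjusted p = 0.00313). It was second in every naive pool. Ighv1-18 was at 20.4, 27.6 and 51.0 TPM in GC and 89.3, 78.8 and 80.1 TPM in naive pools, with a log2 fold change of -1.40 (SE 0.31, limma adjusted p = 0.00676). For all 3 genes the pools of the populations did not overlap.

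A further 4 members were called lower. Ighv6-6 was at 38.8, 23.1 and 27.6 TPM in GC and 54.0, 53.4 and 48.5 TPM in naive pools, a log2 fold change of -0.81 (SE 0.18, limma adjusted p = 0.00715). Ighv4-1 was at 30.8, 10.5 and 35.9 TPM in GC and 73.3, 57.7 and 53.3 TPM in naive pools, a log2 fold change of -1.38 (SE 0.44, limma adjusted p = 0.0302). Neither gene's pools overlapped, but the call of Ighv4-1 was lost without naive replicate 1, 2 or 3 (limma adjusted p between 0.0618 and 0.0867). Ighv1-49 had a log2 fold change of -1.33 (SE 0.40, limma adjusted p = 0.0249) and was at no more than 9.54 TPM in any pool. Its call was lost without GC replicate 1 or 2 or naive replicate 2 or 3 (limma adjusted p between 0.0541 and 0.0819). Ighv8-13 had a log2 fold change of -1.22 (SE 0.45, limma adjusted p = 0.0499), with naive replicate 3 at 4.26 TPM and GC replicate 2 at 4.44 TPM, so that its pools overlapped. Its call was lost without GC replicate 1 or 3 or naive replicate 1 or 2 (limma adjusted p between 0.0824 and 0.136). With no filter on low values, which tests more genes, the calls of Ighv4-1, Ighv1-49 and Ighv8-13 were also lost (limma adjusted p = 0.0569, 0.0501 and 0.0920).

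**Figure D2:**
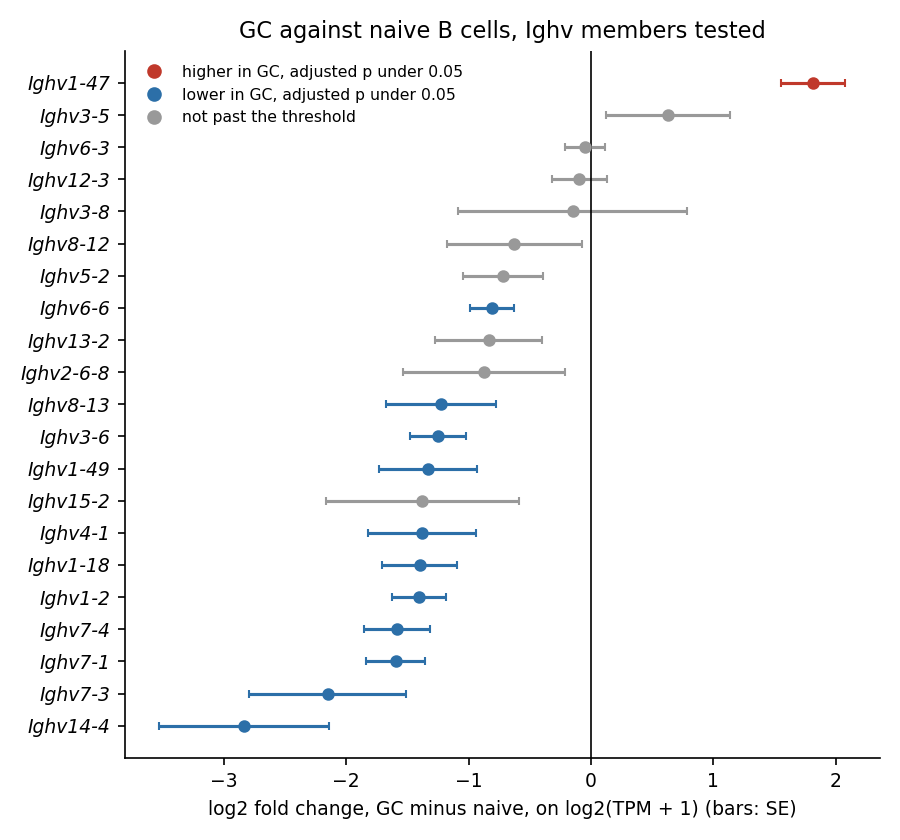
Log2 fold change of GC minus naive B cells on log2(TPM + 1) with its SE (x axis) for the 21 Ighv members tested (y axis), colored by the limma call at an adjusted p under 0.05. Ighv1-47 stands alone on the right at 1.81, 11 members are called lower, and 9 gray members did not pass.

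The other 9 members tested did not pass the threshold. Ighv6-3 was at 106.8, 82.4 and 66.9 TPM in GC and 93.1, 83.6 and 83.3 TPM in naive replicates 1, 2 and 3, with a log2 fold change of -0.05 (SE 0.16, limma adjusted p = 0.824). The naive pools lay within the range of the GC pools. As a share of the Ighv sum it was 18.9%, 13.2% and 11.5% in GC and 9.16%, 7.91% and 9.53% in naive pools, without overlap, although its level overlapped. Ighv12-3 (log2 fold change -0.09), Ighv5-2 (-0.72), Ighv13-2 (-0.84), Ighv2-6-8 (-0.87), Ighv15-2 (-1.38) and Ighv3-5 (0.63) had limma adjusted p values between 0.0939 and 0.737. Without GC replicate 1, Ighv5-2 was called lower (-0.97, limma adjusted p = 0.0389) and Ighv3-5 higher (1.14, limma adjusted p = 0.0397).

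Ighv8-12 and Ighv3-8 each had a GC pool on the other side of the naive pools from the remaining GC pools. Ighv8-12 measured 40.4, 166.7 and 37.9 TPM in GC replicates 1, 2 and 3 and at 106.4, 97.8 and 92.2 TPM in naive replicates 1, 2 and 3. GC replicate 2 lay above every naive pool and the other 2 GC pools lay below every naive pool. The log2 fold change was -0.63 (SE 0.55, limma adjusted p = 0.355), and -1.31 without GC replicate 2 (limma adjusted p = 9.75e-05). Its share of the Ighv sum reached 26.6% in GC replicate 2, the largest share of any member in any pool, from about 159 reads. Its relative Ighv8-13 measured 2.08, 4.44 and 1.13 TPM in GC replicates 1, 2 and 3. These values rest on about 2.1, 3.9 and 1 reads, too few to rank the pools.

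Ighv3-8 measured 2.99, 34.4 and 54.0 TPM in GC replicates 1, 2 and 3 and at 20.3, 18.6 and 24.4 TPM in naive replicates 1, 2 and 3. GC replicate 1 lay below every naive pool and the other 2 GC pools above. The log2 fold change was -0.15 (SE 0.94, limma adjusted p = 0.899), and it turned to 1.01 without GC replicate 1 (limma adjusted p = 0.0106).

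At the level of families, the shares of 4 families did not overlap between the populations. Family 7 held 5.09%, 4.56% and 7.29% of the Ighv sum in GC replicates 1, 2 and 3 and 13.4%, 9.67% and 11.0% in naive replicates 1, 2 and 3. Family 14, measured through Ighv14-4 alone, held 1.72% ± 1.76 in GC and 5.64% ± 0.557 in naive pools (SD, n = 3), with no GC pool above 3.69%. Both families took smaller shares in GC B cells, whereas families 6 and 12 took larger ones. Family 6 held 25.8%, 16.9% and 16.3% in GC and 14.5%, 13.0% and 15.1% in naive pools, although its summed level overlapped, from 94.4 to 145.7 TPM in GC and from 131.8 to 147.1 TPM in naive pools. Family 12, measured through Ighv12-3 alone, held 1.18%, 1.17% and 1.85% in GC and 0.796%, 1.09% and 0.806% in naive pools. Its level also overlapped, from 6.67 to 10.7 TPM in GC and from 7.04 to 11.5 TPM in naive pools. In the GC pools it rested on only about 8.6 to 13.5 reads. Family shares had no test.

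Family 1 held the largest share in every pool, between 31.2% and 37.7% in GC and between 28.4% and 35.3% in naive pools, so the populations overlapped. Its composition differed more than its share. Ighv1-47 was its leading member in GC replicates 1 and 2, and Ighv1-2 in GC replicate 3 and every naive pool. Family 8 held 7.52%, 27.3% and 6.72% in GC pools and between 10.4% and 11.0% in naive pools, and family 3 held 10.3%, 12.0% and 21.3% in GC and between 13.3% and 16.4% in naive pools. Nearly all of family 8 was Ighv8-12. In GC replicate 3, Ighv3-6 held 11.4% and Ighv3-8 9.31% of the Ighv sum, and in the naive pools Ighv3-8 held no more than 2.79%. Genes that RefSeq lists as pseudogenes held 17.2% ± 2.40 of the sum in GC and 29.8% ± 3.61 in naive pools (SD, n = 3), without overlap, nearly all of it in Ighv1-2 and Ighv7-1. Whether these 2 genes can encode a heavy chain was not checked, so the share describes an annotation class only.

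**Figure D3:**
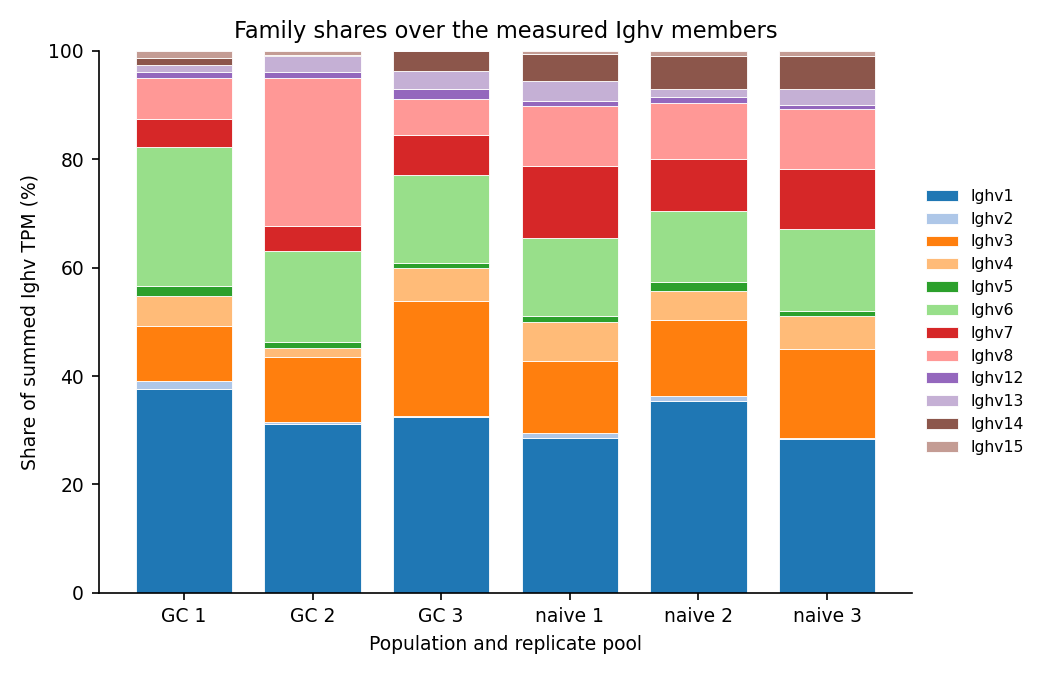
Share of the summed Ighv TPM in percent (y axis) held by each family with a value, stacked by color, in each of the 3 GC and 3 naive pools (x axis). The naive bars are alike, while family 8 widens to 27.3% in GC replicate 2, family 6 to 25.8% in GC replicate 1 and family 3 to 21.3% in GC replicate 3.

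Position along the locus did not separate the populations. The 19 members between the D segments and Ighv1-2 held 53.4%, 40.7% and 60.9% of the sum in GC pools and 59.7%, 53.3% and 59.5% in naive pools. Of the 14 of them tested, 7 were called lower and 0 higher by limma, and of the 7 tested from Ighv1-2 outward, 4 were called lower and 1 higher. The split at Ighv1-2 was chosen after the values were seen.

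Usage was not consistently less even in GC B cells. The effective number of members, the exponential of the Shannon entropy of their shares, was 10.9, 10.3 and 13.3 in GC replicates 1, 2 and 3, with a mean of 11.5 ± 1.62 (SD, n = 3). It was 13.2, 12.8 and 13.0 in naive replicates 1, 2 and 3, with a mean of 13.0 ± 0.194 (SD, n = 3). GC replicates 1 and 2 lay below every naive pool and GC replicate 3 above, so that the populations overlapped. The inverse Simpson index, which weights abundant members more, was 7.94, 7.33 and 11.6 in GC and 10.8, 9.20 and 10.7 in naive pools, with GC replicates 1 and 2 again lowest. The 5 most abundant members held 69.5%, 71.7% and 54.6% of the sum in GC and 57.9%, 60.6% and 58.7% in naive pools.

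The GC pools differed from each other more than the naive pools did. Bray-Curtis dissimilarity of the shares, which is 0 for identical usage and 1 for no member in common, ranged from 0.274 to 0.291 among GC pools (3 pairs) and from 0.0680 to 0.133 among naive pools (3 pairs). Between a GC and a naive pool it was between 0.184 and 0.414. GC replicate 3 was closer to each naive pool (0.184 to 0.245) than to the other GC pools (0.274 and 0.291). Across the 25 members with a value, Pearson's r of log2(TPM + 1) was between 0.803 and 0.866 for GC pairs and between 0.939 and 0.958 for naive pairs. These correlations are across genes, which are not independent replicates. Across all 12785 genes tested, r was between 0.963 and 0.964 for GC pairs and between 0.966 and 0.972 for naive pairs. That gap had the same direction but was much smaller. An r over so many genes is not directly comparable with that over 25 members.

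**Figure D4:**
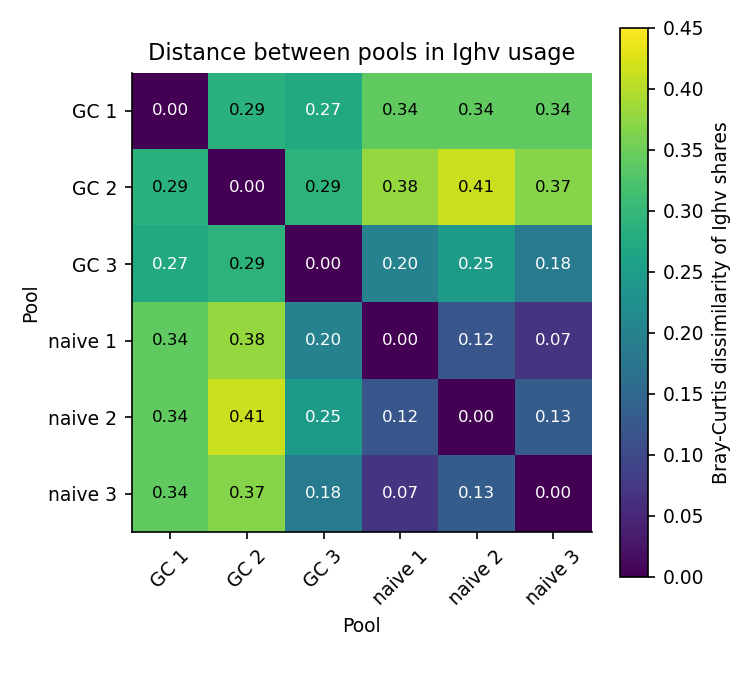
Bray-Curtis dissimilarity of Ighv shares for each pair of the 6 pools (both axes), from 0 in dark to higher values in yellow. Naive pools form a dark block of 0.0680 to 0.133, GC pools lie at 0.274 to 0.291 from each other, and GC replicate 3 lies at 0.184 to 0.245 from the naive pools.

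The same direction was seen gene by gene, at differing sizes. Of the 14 members with a mean of at least 5 TPM in both populations, 13 had a larger CV among GC pools than among naive pools, and the exception was Ighv1-2. Leaving out any pool gave between 10 and 13 of 14. The CVs were nearly equal for Ighv12-3 (26.5% in GC and 26.2% in naive pools) and Ighv5-2 (38.4% and 37.9%), and close for Ighv13-2 (44.8% and 41.3%). Of all 8865 genes at these levels, 40.3% had a larger CV among GC pools. The median CV of the 14 members was 37.5% in GC and 13.3% in naive pools, and that of all genes 6.18% and 7.77%. The largest CVs in GC were those of Ighv14-4 (102%), Ighv8-12 (90.2%) and Ighv3-8 (84.5%), which in naive pools were 12.6%, 7.23% and 14.1%. Fewer reads widen a CV. Mean estimated reads per pool were 11.6 in GC and 81.5 in naive for Ighv14-4, 80.4 and 127 for Ighv8-12, and 37.2 and 32.7 for Ighv3-8.

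Members at 20 to 200 TPM had a median CV of 35.0% in GC pools, against a median of 5.54% for all 5616 genes at that level, and 9 of 10 exceeded the 90th percentile of those genes, 15.6%. In naive pools the median was 10.5% against 7.17%, and 4 of 12 members exceeded the 90th percentile, 15.5%. V segments are short, so fewer reads stand behind a given TPM. The estimated reads alone would give a median CV of 15.9% in GC and 10.1% in naive pools for these members, so that the naive spread was close to that of counting and the GC spread was larger. At 5 to 20 TPM this contrast was not seen. The median CV there was 41.6% for 4 members in GC and 41.2% for 7 members in naive pools. Estimated reads alone would give 31.1% and 26.2%. Of these members, 3 in GC and 5 in naive pools exceeded the 90th percentile of all genes, 28.2% and 26.6%. At 1 to 5 TPM the median was 79.2% for 6 members in GC and 39.5% for 2 members in naive pools. The read estimates cover counting error only.

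**Figure D5:**
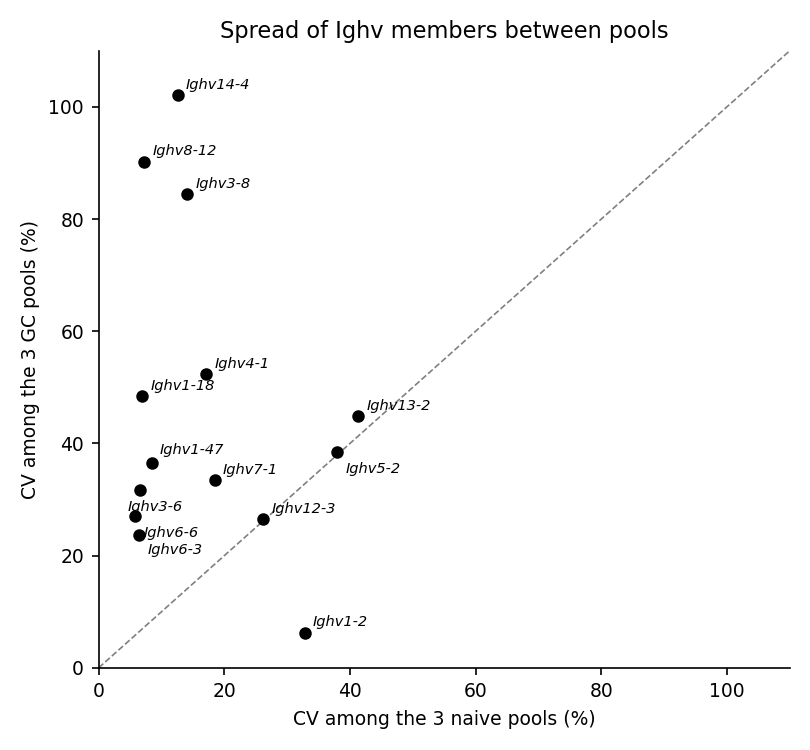
CV among the 3 GC pools (y axis, percent) against CV among the 3 naive pools (x axis, percent) for the 14 Ighv members with a mean of at least 5 TPM in both populations, each point a gene and the dashed line equality. All points but that of Ighv1-2 lie above the line, those of Ighv12-3 and Ighv5-2 only just. Ighv14-4, Ighv8-12 and Ighv3-8 lie highest, at 102%, 90.2% and 84.5% in GC.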

How the data were processed

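RNA-Seq reads of 3 GC and 3 naive pools were demultiplexed with CASAVA v1.8, trimmed with cutadapt v1.9, and aligned and quantified on the mouse transcriptome (NCBIm38, Ensembl 75) with RSEM v1.2.25, with limits on mismatches and on alignments per read. The authors deposited FPKM per gene, with no counts. No source used here ties a GC pool to the naive pool of that number.

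FPKM was rescaled to TPM per pool. The reference tables named 33398 of 39179 identifiers, and 5781 stayed unnamed; 85 of the 116 reference identifiers named Ighv were not found in the table. GC and naive pools were set against each other in limma 3.58.1, under R 4.3.3 (trend, two-sided, Benjamini-Hochberg over all genes tested) on log2(TPM + 1), for genes that reached 1 TPM in 3 or more pools. Fold changes on this scale understate those of low genes. The fit was tested on simulated data. Sums, shares, evenness and agreement were described without tests. Sequences were aligned with Biopython 1.88. Other steps used Python 3.11.15, numpy 2.4.6, pandas 2.3.3 and matplotlib 3.10.9.

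Members named are the 5 most abundant in each population, the 5 largest fold changes per direction among calls, the 5 in each population whose highest pool stood farthest above the median pool, and the leading member of each family. The other members are named to account for every gene. The members, lists and tests were chosen with earlier results of these data known. Alternatives covered the pseudocount, filters, scaling, pseudogenes, the most abundant member, the replicate block and each pool left out.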

Additional observations from a re-analysis of the deposited data

How the results depend on the processing

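The count of members called higher in GC B cells was 1 and ranged from 1 to 3 when a pool was left out (3 without GC replicate 1), and the count called lower, 11, ranged from 7 to 10 (7 without naive replicate 2). It was 8 with no filter and with a filter of 5 TPM, and 9 to 11 with other pseudocounts and scalings. Of the 12 calls, 7 were kept in every alternative. Ighv7-4 was lost with a pseudocount of 0.01, and Ighv8-13 with pseudocounts of 0.1 and 0.01. With a pool left out, log2 fold changes reversed for Ighv12-3 (range -0.28 to 0.088; above 0 without GC replicate 1 or naive replicate 2), Ighv6-3 (range -0.22 to 0.12; above 0 without GC replicate 3 or naive replicate 1) and Ighv3-8 (range -0.89 to 1.01; above 0 without GC replicate 1), and the cause was not tested. The log2 ratio of the summed level moved to -0.61 without Ighv1-2. The distance between family shares, 12.0 percentage points, moved to 21.7 without the most abundant member of each pool and 17.9 without Ighv1-2, and ranged from 11.4 to 18.2 with a pool left out. The gap in median r between GC and naive pairs, -0.09, was -0.13 with a pseudocount of 0.1 and ranged from -0.15 to -0.076 with a pool left out. Leaving out Ighv1-2, and pools for the agreement and the CV, were chosen after seeing the data. No pair of members reached the identity set for merging, so that alternative gave no value.

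With the replicate number as a block, 1 member was called higher and 11 lower, the same 12 calls. Deviations of same-numbered pools correlated at 0.08, 0.02 and 0.05, and those of differently numbered pools at between -0.075 and 0.030. All of these values are near 0, so they cannot tell whether the numbers pair the samples. Only 3 pools per population, a depth of about 9650000 to 15850000 reads and the short transcripts limit the members below 5 TPM.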
